A study of Mus musculus with 6 samples.

Results

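The ceramide synthases are the family of enzymes encoded by Cers1 to Cers6, and the members here are the 6 rows of the deposited tables with those symbols, out of 24346 gene symbols. The family was taken up with the genotype comparison of these data already known, in which Cers5 was lower in triple-deficient retinas. For that reason the genotype values of all 6 members are given as a description, without a test, and they support nothing further. The order of the members by level was not used in the choice and was tested. That test covers all 6 libraries, so it includes the Cers5 values of this comparison.

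The libraries were made from poly(A)-selected RNA of whole retinas at postnatal day 12, with 3 libraries per group. Control mice were Panky+/-;Panky-like+/-;Nrl-/- and triple-deficient mice were Panky-/-;Panky-like-/-;Nrl-/-, so by these labels every animal was homozygous mutant for Nrl and the controls carried 1 mutant copy of each of the other 2 genes. Nrl encodes the factor that makes photoreceptor precursors become rods, and retinas without it are rich in cone-like cells. Panky is Ankrd33, a photoreceptor protein known as a co-repressor of the homeodomain factor CRX, and Panky-like is taken to be Ankrd33b, an assignment the labels do not state. Wild-type libraries and libraries of the single mutants were not used here, and RNA of all retinal cells was measured together.

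Ceramide synthases are membrane enzymes of the endoplasmic reticulum that join a fatty acyl-CoA to a sphingoid base. They act on dihydrosphingosine made from serine and palmitoyl-CoA, and on sphingosine released when sphingolipids are broken down. The resulting ceramides are the base of sphingomyelin, glucosylceramide and gangliosides. Each paralog prefers acyl chains of certain lengths. CERS5 and CERS6 favour palmitoyl-CoA, CERS1 favours stearoyl-CoA, CERS4 takes stearoyl- and arachidoyl-CoA, CERS2 takes very long chains, and CERS3 takes the ultra long chains known from skin and testis. All 6 proteins share the TLC domain, named after the TRAM, LAG1 and CLN8 proteins.

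The 6 genes lie apart in the genome (RefSeq, GRCm38). Cers4 (4492818 to 4529603) and Cers1 (70315775 to 70331588) are on chromosome 8, Cers2 on chromosome 3 (95314771 to 95323599), Cers3 on chromosome 7 (66733118 to 66823692) and Cers6 on chromosome 2 (68861145 to 69114284). Cers5 lies on chromosome 15 (99735592 to 99772515, minus strand), which also carries both targeted genes. The promoters of Cers4, which had the highest level of the family, and of Cers5, the member through which the family was taken up, are shown because a partner of the targeted protein, CRX, binds sites with the core TAATCC. Each window holds 250 bases before and 50 after a RefSeq transcription start, read 5′ to 3′ on the strand of the gene (RefSeq, GRCm38.p6). Capitals mark the core, here in its reverse complement GGATTA.
Cers4 (chr8:4493155-4493454, plus strand): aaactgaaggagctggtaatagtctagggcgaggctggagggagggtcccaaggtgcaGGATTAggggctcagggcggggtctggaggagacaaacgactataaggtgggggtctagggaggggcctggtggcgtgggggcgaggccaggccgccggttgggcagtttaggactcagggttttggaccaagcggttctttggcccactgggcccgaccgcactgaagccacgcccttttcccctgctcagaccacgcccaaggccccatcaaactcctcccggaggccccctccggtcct
Cers5 (chr15:99772466-99772765, minus strand): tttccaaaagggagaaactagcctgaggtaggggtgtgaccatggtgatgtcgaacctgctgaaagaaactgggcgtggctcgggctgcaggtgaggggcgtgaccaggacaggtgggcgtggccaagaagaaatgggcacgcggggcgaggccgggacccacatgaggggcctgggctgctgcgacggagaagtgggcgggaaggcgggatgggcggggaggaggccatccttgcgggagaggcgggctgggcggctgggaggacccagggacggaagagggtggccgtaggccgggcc

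Of the 7 promoter windows that RefSeq gives for the family, only that of Cers4 held TAATCC on either strand, 192 bases before its transcription start. This window lies wholly inside the span given above for Cers4, so its start is not the first base of that span. The windows of Cers2, Cers3 and Cers6 also lie inside their spans. The same letters stood in 7.06% of all 32851 windows, and a match in these letters is a description, not a binding site. The Cers5 window held none and was 67.7% G and C with 20 CpG pairs, against 64.3% and 14 for Cers4 and a median of 52.7% over all windows. Cers1 and Gdf1, a growth factor gene, had the same window, because the annotation draws them as transcripts of a single locus.

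Both Panky genes were lower in the triple-deficient libraries, to different degrees. Ankrd33b stood between 32.6 and 35.4 FPKM in controls and between 1.31 and 1.80 FPKM in triple-deficient libraries. Ankrd33 stood between 104 and 110 FPKM and between 50.5 and 59.6 FPKM, so that 52.2% of its control mean was still measured in animals labelled -/-. Transcripts of Nrl were measured in all 6 libraries despite the -/- label, at 38.3 to 49.2 FPKM in controls and 51.3 to 53.7 FPKM in triple-deficient retinas. A single value per gene does not show which exons these fragments cover, so neither value checks the deleted part. FPKM is the number of fragments per kilobase of transcript, scaled to the mapped fragments of the library, and all levels below are on that scale, as deposited. Read totals are not in the tables, but the steps between low values of 1737 genes put the libraries at about 18.2 to 27.6 M fragments, or 20.2 to 30.1 M if fragments of 250 bases are assumed. Cone transcripts were abundant, with Gnat2 at 532 to 583 FPKM. The rod transcript Gnat1 stayed at 0.269 to 0.514 FPKM, but it does not stand for the whole rod list. Summed over 9 rod markers, Gnat1 among them, levels were 1785 to 1893 FPKM in controls and 1831 to 1891 FPKM in triple-deficient libraries. Triple-deficient 3 stood apart in base composition, its deviations from the gene means correlating with transcript GC content at Spearman -0.60 across genes, against 0.07 to 0.29 in the others.

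Cers4 was the most abundant ceramide synthase transcript in every library. It measured 54.2, 46.2 and 41.5 FPKM in controls 1, 2 and 3 and 48.7, 50.3 and 51.0 FPKM in triple-deficient 1, 2 and 3. The triple-deficient values fell inside the range of the controls, which was the wider of the 2. Its level was 1.59 to 2.02 times that of Cers2, the next paralog.

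Cers2, the enzyme of very long chain ceramides that myelin and liver use, measured 26.8, 27.8 and 26.0 FPKM in controls and 25.2, 28.5 and 28.02 FPKM in triple-deficient libraries. The groups overlapped, and triple-deficient 1 was the lowest library. Cers2 exceeded Cers5 in all 6 libraries, by 1.06 to 1.45 times.

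Cers5, a palmitoyl-preferring enzyme, measured 25.4, 22.9 and 23.8 FPKM in controls and 20.2, 19.6 and 20.4 FPKM in triple-deficient libraries. All 3 triple-deficient values lay below all 3 controls, and the triple-deficient values lay closer together than the controls. Cers6, the other palmitoyl-preferring enzyme, measured 7.06, 7.92 and 6.89 FPKM in controls and 8.64, 7.38 and 8.22 FPKM in triple-deficient libraries, groups that overlapped at control 2 and triple-deficient 2.

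Cers1, the stearoyl-preferring enzyme known from neurons, measured 11.5, 9.87 and 10.2 FPKM in controls and 9.78, 8.36 and 6.98 FPKM in triple-deficient libraries. The groups did not overlap, but triple-deficient 1 came close to control 2, and triple-deficient 3 was the lowest library. Gdf1 shares the locus of Cers1, and the counting of their common fragments is not given in the sources used here, so both values are uncertain. Gdf1 was listed at 0.0647 to 1.33 FPKM, and the sum of both genes ran from 11.2 to 11.8 FPKM in controls and from 7.04 to 10.1 FPKM in triple-deficient libraries.

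Cers3 was close to absent. It measured 0.174, 0.145 and 0.130 FPKM in controls and 0.232, 0.0993 and 0.182 FPKM in triple-deficient libraries, which at the estimated depths is about 7 to 21 fragments per library. It was below the minimum mean of 0.5 FPKM for the genotype fit, so 5 of the 6 members entered that fit.

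**Figure D1:**
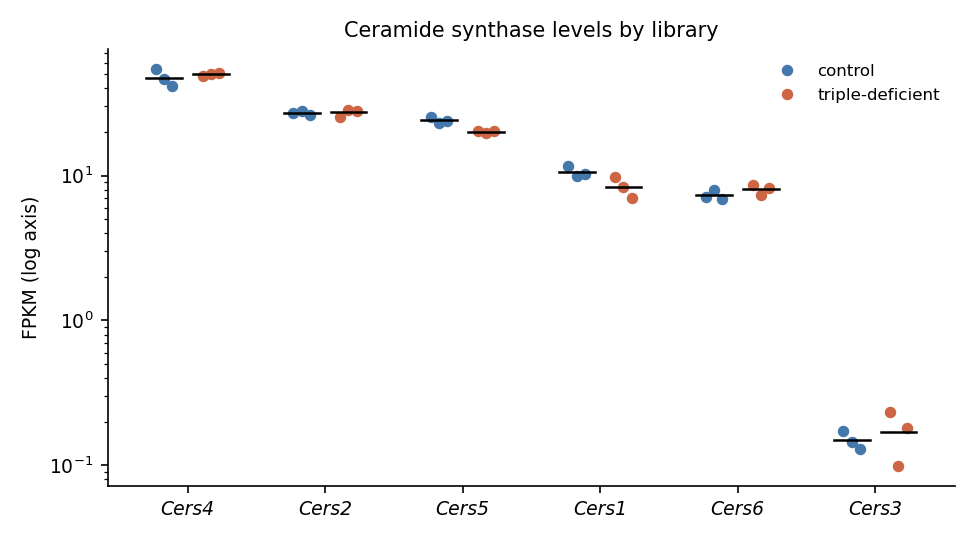
FPKM of the 6 ceramide synthases on a log axis, ordered by mean level; each point is a library, blue for control and orange for triple-deficient, and bars are means of 3. Cers4 lies highest at 41.5 to 54.2 FPKM, Cers3 lies at 0.0993 to 0.232 FPKM, and the 2 groups separate without overlap for Cers5 and Cers1.

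The order of the levels, Cers4, Cers2, Cers5, Cers1, Cers6 and Cers3, was tested over the 6 libraries with exact two-sided sign-flip permutation tests of the differences in log2(FPKM + 1). In 14 of the 15 pairs of paralogs the same member was higher in 6 of 6 libraries, and each reached the smallest p that 6 libraries allow (exact permutation p = 0.0313, adjusted p = 0.0335 over the 15 pairs). The pair that did not pass was Cers1 and Cers6, with Cers1 higher in 5 of 6 libraries by a mean log2 difference of 0.26 ± 0.30 (SD, n = 6, exact permutation p = 0.125). Cers1 stood at 1.25 to 1.63 times Cers6 in controls and at 0.849 to 1.13 times in triple-deficient retinas. The closest pair that passed was Cers2 and Cers5, with a mean log2 difference of 0.29 ± 0.17 (SD, n = 6). Cers2 stood at 1.06 to 1.21 times Cers5 in controls and at 1.25 to 1.45 times in triple-deficient retinas. This pair includes the Cers5 values through which the family was taken up. Levels between genes also depend on the transcript lengths assumed by the authors, which are not given here. The annotated coding transcripts are long for Cers4, at up to 9475 bases, and for Cers6, at up to 7038 bases, and reach 2216 bases for Cers2 and 2775 bases for Cers5.

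Summed over the family, ceramide synthase transcripts came to 125, 115 and 109 FPKM in the controls, numbered 1 to 3, against 113, 114 and 115 FPKM in the triple-deficient group. The triple-deficient sums lay inside the control range. Grouped by preferred chain, Cers4 and Cers1 together held 47.6% to 52.5% of the sum in the 6 libraries. The palmitoyl-preferring Cers5 and Cers6 held 23.6% to 28.3%, Cers2 held 21.4% to 24.9%, and Cers3 at most 0.206%. Shares of transcripts are not shares of enzyme activity or of ceramide species, which were not measured here.

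Within that mix, Cers5 made up 20.7% ± 1.05 of the sum in controls and 17.6% ± 0.384 in triple-deficient retinas (SD, n = 3). The share of Cers6 was 6.30% ± 0.629 and 7.09% ± 0.602. Within the palmitoyl-preferring pair the ratio of Cers5 to Cers6 was therefore 2.89 to 3.59 in controls and 2.34 to 2.66 in triple-deficient retinas, ranges that do not overlap. The pair together held 27.0% ± 1.19 and 24.7% ± 0.978 of the sum, and the groups did not overlap, with the highest triple-deficient library at 25.6% and the lowest control at 25.9%. For Cers4 and Cers1 together the shares were 49.7% ± 2.55 and 51.2% ± 0.682, and those of the groups overlapped. These shares come from the contrast that brought the family up, and they have no test.

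**Figure D2:**
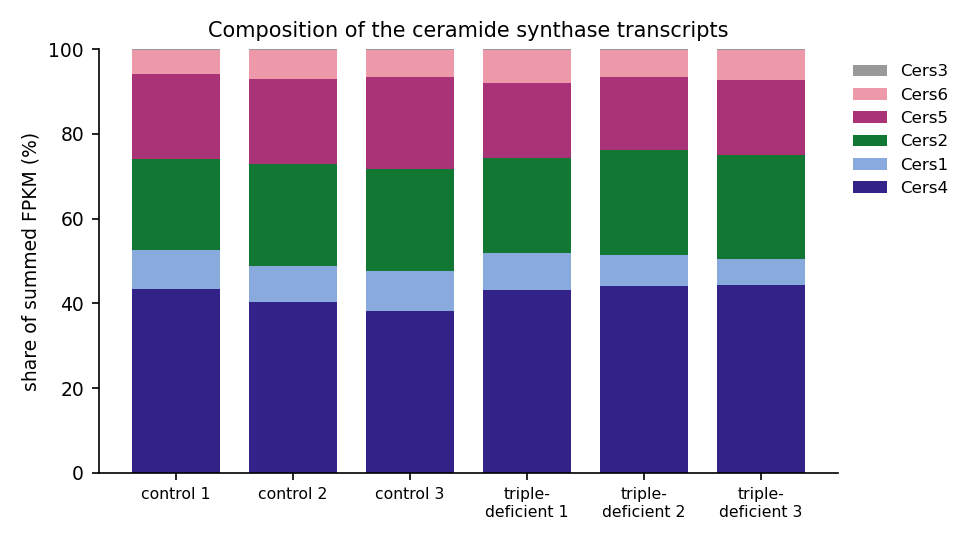
Stacked bars give the percent of the summed FPKM of Cers1 to Cers6 held by each paralog in each library, from 0 to 100%. Cers4 and Cers1 (blue) hold 47.6% to 52.5%, Cers2 (green) 21.4% to 24.9% and Cers5 with Cers6 (pink) 23.6% to 28.3%; Cers3 is too low to see.

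In the genotype comparison, fitted with limma on log2(FPKM + 1) over 14325 genes, none of the 5 tested members passed an adjusted p of 0.05, where 0.0279% of all genes did. At an unadjusted p below 0.05 in limma stood 2 of the 5, Cers5 and Cers1, against 5.09% of all genes. The same 2 were lower without overlap of the groups, as were 5.64% of all genes, and 10.5% of all genes had groups without overlap in either direction. Because this contrast brought the family up, nothing is read from these counts. The median change of the 5 tested members was 0.02, and that of all genes tested was 0.003.

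Cers5 went from 24.0 ± 1.23 to 20.1 ± 0.400 FPKM (SD, n = 3), so that 83.6% of its control mean remained, with a log2 change of -0.25 (SE 0.052). Of the 14325 genes, 379 had a larger fall. The Cers5 change was between -0.28 and -0.21 in each of 17 other settings. Settings that alter only the filter, the variance model or the replicate block cannot move it, and it stayed at -0.25 there. Because the groups do not overlap, leaving out a library cannot change its sign. The Cers5 transcript has 47.9% G and C. With the GC and length trends removed from each library, its values were 25.7, 22.9 and 23.8 FPKM in controls and 20.4, 19.6 and 19.9 FPKM in triple-deficient libraries, with a log2 change of -0.26.

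Cers1 went from 10.5 ± 0.886 to 8.37 ± 1.40 FPKM (SD, n = 3), a log2 change of -0.31 (SE 0.110). Its longest coding transcript has 62.6% G and C, more than 98.4% of the genes tested, and its lowest library was triple-deficient 3, whose deviations fall with GC content. With the GC and length trends removed its values were 10.7, 9.42 and 9.82 FPKM in controls and 9.36, 8.59 and 8.36 FPKM in triple-deficient libraries. The change was then -0.17 (SE 0.064), and without triple-deficient 3 it was -0.20. The part of base composition in the difference of Cers1 was not tested further.

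The other 3 tested members had groups that overlapped. Cers6 had a log2 change of 0.13 (SE 0.077), Cers4 of 0.09 (SE 0.087) and Cers2 of 0.02 (SE 0.058). Across the 17 other settings the changes ran from 0.07 to 0.19 for Cers6, from -0.0008 to 0.19 for Cers4 and from -0.01 to 0.07 for Cers2. Their 95% intervals, with all libraries as deposited, reached from -0.05 to 0.31, from -0.11 to 0.29 and from -0.12 to 0.15.

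RNA of other cells was measured with that of photoreceptors, so fewer cells of a type and less RNA per cell cannot be told apart. The summed level of 8 Müller glia markers ran from 1765 to 1798 FPKM in controls and from 1571 to 1712 FPKM in triple-deficient libraries, without overlap. That of 10 cone markers ran from 5987 to 6129 and from 5544 to 6083 FPKM, and that of 10 pigment epithelium markers from 286 to 301 and from 242 to 294 FPKM. For 7 bipolar cell markers the sums were 765 to 794 and 779 to 841 FPKM. Median log2 changes were 0.006 for Müller glia, -0.01 for cone, -0.26 for pigment epithelium and 0.03 for bipolar cell markers. They were -0.17 for lens, -0.002 for rod and 0.0006 for vascular and blood markers, over the tested members of each list. No marker of these lists was at 0 in every library, and none passed limma's adjusted threshold. Their part in the lower Cers5 and Cers1 values was not tested.

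Cers5 lies 1.34 Mb from Ankrd33 and 68.4 Mb from Ankrd33b, while the other 5 members are on other chromosomes. Between Cers5 and Ankrd33, 19 further genes were tested and none passed, with 5 lower and 2 higher without overlap, and 3 lower and 1 higher at an unadjusted p below 0.05 in limma. Over all genes, 5.64% were lower without overlap, 10.5% were without overlap in either direction, and 5.09% had an unadjusted p below 0.05. Apart from Cers5, Ankrd33 and Ankrd33b, 544 genes of chromosome 15 were tested, the 19 included. Of these 544, 34 were lower and 25 higher without overlap. For the 19 genes the median log2 change was -0.05. Of the 19, 2 had a larger fall than Cers5: Fignl2 (-0.49, SE 0.064) and Mettl7a1 (-0.46, SE 0.116). Slc4a8, a bicarbonate transporter gene, had the largest change upward (0.28, SE 0.070).

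Over the same distance on the far side of Cers5, 38 genes were tested, with 2 lower and 5 higher without overlap and a median of 0.007, and 4930415O20Rik (-0.33, SE 0.122) had a larger fall than Cers5. Beyond Ankrd33, 3 of 21 were lower without overlap and 0 were higher, with a median of -0.02, and Acvrl1 (-0.41, SE 0.066) had a larger fall than Cers5. Lima1, the gene nearest to Cers5 at a gap of 5953 bases, had a log2 change of -0.10 (SE 0.054) and groups without overlap. In these groups the loss of the targeted proteins and any difference in the DNA inherited with the targeted alleles on chromosome 15 cannot be told apart.

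**Figure D3:**
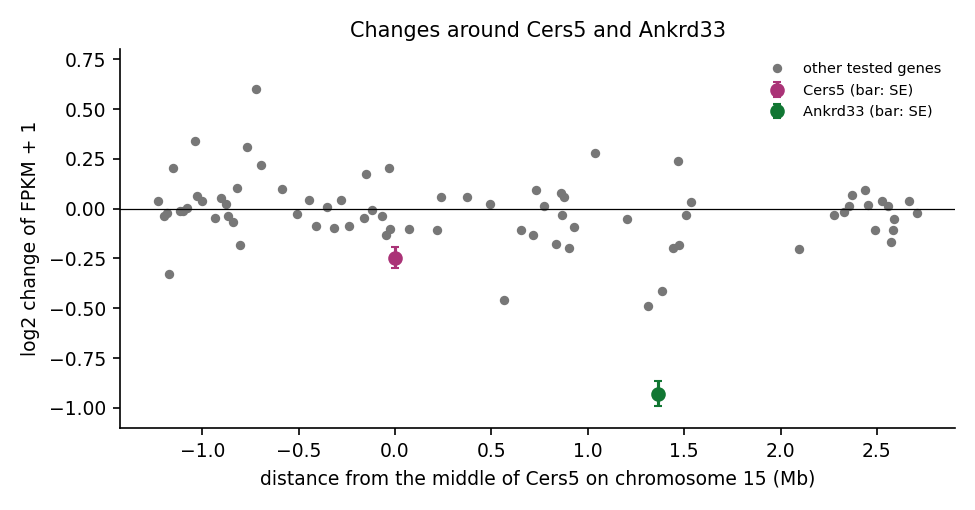
Log2 change of FPKM + 1 (triple-deficient minus control) against the distance from the middle of Cers5 on chromosome 15, in Mb. Each point is a tested gene, and bars are standard errors, drawn for Cers5 and Ankrd33 only. The small RNA genes Snora34 and Mir1291 lie above the axis. Cers5 stands at -0.25 and Ankrd33, 1.36 Mb away between midpoints, at -0.93, while the points between them lie from -0.49 to 0.28.

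The genes that feed ceramide synthases and use their products were taken in 5 lists, and 10 relatives with a TLC domain, which need not act on ceramide, in a further list. Of these 70 genes 64 were tested, and none passed limma's adjusted threshold, where 0.0279% of all genes did. At an unadjusted p below 0.05 stood 5 of the 64, 3 higher and 2 lower, against 5.09% of all genes. Their median log2 change was 0.02, with 40 changes above and 24 below 0.

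Sphingoid bases are made by serine palmitoyltransferase, whose catalytic subunits Sptlc1 and Sptlc2 stood near each other at 11.6 ± 0.158 and 12.3 ± 0.222 FPKM in controls. In triple-deficient retinas they were at 12.35 ± 0.630 and 12.2 ± 0.208 FPKM, and Sptlc3 was listed at 0 in every library. Sptssa, a small subunit of that enzyme, was at 124 ± 3.44 and 135 ± 4.45 FPKM in the respective groups (log2 change 0.11, SE 0.046, limma adjusted p = 0.930). Kdsr, the reductase of the next step, was at 12.6 ± 0.663 and 13.8 ± 0.467 FPKM, and Degs2, a desaturase and hydroxylase that acts on dihydroceramide, at 14.98 ± 0.316 and 13.9 ± 0.224 FPKM. Of 10 tested genes 7 had changes above 0, and the median was 0.05.

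The acyl-CoA list holds fatty acid synthesis, elongation and activation, the steps that set which chains are at hand. Its 22 tested genes had a median of 0.01. Hacd1, a dehydratase of the elongation cycle, was at 24.4 ± 0.437 and 20.1 ± 1.83 FPKM in the respective groups (log2 change -0.27, SE 0.067, limma adjusted p = 0.651). Acsl1, an acyl-CoA synthetase, was at 47.1 ± 1.63 and 52.4 ± 1.33 FPKM (0.15, SE 0.046, limma adjusted p = 0.836). Elovl2, an elongase of polyunsaturated chains, was at 138 ± 2.81 and 130 ± 3.63 FPKM, and the desaturase Scd2 at 146 ± 4.10 and 154 ± 3.10 FPKM.

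3 elongases outside the naming rule were chosen after their values were seen, for their place in chain length. Elovl6, which lengthens palmitoyl-CoA to stearoyl-CoA, was at 38.8 ± 0.355 and 39.0 ± 1.66 FPKM, a log2 change of 0.005 (SE 0.046). Elovl1, which makes the very long saturated chains that CERS2 uses, was at 4.96 ± 0.103 and 5.18 ± 1.09 FPKM. Elovl4, the photoreceptor elongase of very long polyunsaturated chains, was at 130 ± 4.25 and 135 ± 2.097 FPKM. Dbi, the acyl-CoA binding protein, was the most abundant of the list at 302 ± 12.8 and 303 ± 12.9 FPKM.

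Among the enzymes that use ceramide, Cerk, the ceramide kinase, was at 31.8 ± 2.03 and 35.0 ± 1.22 FPKM in controls and triple-deficient retinas (log2 change 0.14, SE 0.057, limma adjusted p = 0.943), with groups that overlapped. Samd8, a ceramide phosphoethanolamine synthase, was at 23.1 ± 0.181 and 24.0 ± 1.64 FPKM, and Sgms1, a sphingomyelin synthase, at 5.82 ± 0.351 and 6.04 ± 0.357 FPKM. The list had 6 tested genes and a median of 0.04. In the release of ceramide and sphingosine, 12 tested genes had a median of 0.001. The alkaline ceramidase Acer2 had the largest change there (-0.31, SE 0.082, limma adjusted p = 0.690), and the neutral sphingomyelinase Smpd4 was at 12.9 ± 0.293 and 13.7 ± 0.193 FPKM. Asah1, the acid ceramidase, was at 24.5 ± 1.04 and 25.8 ± 1.13 FPKM.

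Sphingosine that is phosphorylated is lost to the ceramide synthases unless it is dephosphorylated again. The kinase Sphk2 was at 15.1 ± 0.266 and 13.6 ± 1.43 FPKM, and the phosphatase Sgpp1, which returns sphingosine, at 18.8 ± 0.886 and 20.03 ± 0.749 FPKM. Sgpl1, the lyase that ends the pathway, was at 10.8 ± 0.640 and 11.5 ± 0.261 FPKM, and the phosphatase Sgpp2 at 3.16 ± 0.258 and 2.94 ± 0.337 FPKM. These 5 genes had changes from -0.14 to 0.08 and groups that overlapped.

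The TLC domain relatives include a gene with a level far above the ceramide synthases. Fam57b, now named Tlcd3b, a gene linked to ceramide synthesis and to inherited retinal disease in humans, was at 216, 219 and 199 FPKM in controls and 221, 222 and 191 FPKM in triple-deficient libraries. The third library was the lowest of each group, and the groups overlapped. The control mean of Fam57b, 211 FPKM, exceeded the sum of all 6 ceramide synthases, 116 FPKM. Its log2 change was -0.005 (SE 0.071).

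Of the other relatives above 10 FPKM, the translocon proteins Tram1 and Tram1l1 were at 23.9 ± 1.60 and 22.0 ± 1.98 FPKM in controls, and Tmem136, now Tlcd5, at 26.3 ± 0.816 FPKM. In triple-deficient retinas they were at 24.4 ± 1.31, 22.1 ± 0.652 and 26.5 ± 1.82 FPKM. Tlcd1, Tmem56, Tram2 and Cln8, a cargo receptor of the endoplasmic reticulum, had the smallest p of the list. All 4 stood below 5 FPKM, with changes from -0.14 to 0.06. None of the 9 tested relatives had groups without overlap.

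**Figure D4:**
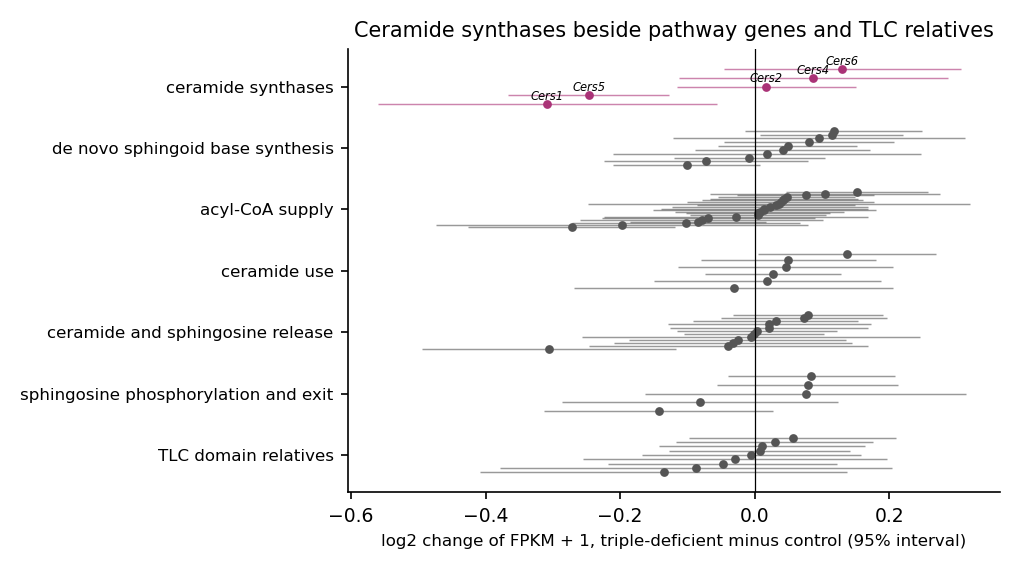
Log2 change of FPKM + 1, triple-deficient minus control, for the tested genes of each list, with points for genes and lines for 95% limma intervals that are not adjusted for the number of genes. Cers5 (-0.25) and Cers1 (-0.31) lie left of 0 and the other members lie at 0.02 to 0.13, while the 64 genes of the other lists lie between -0.31 and 0.15.

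The genes whose log2(FPKM + 1) values followed those of Cers5 most closely over the 6 libraries were Arid3c, Mxra7, Raver2, Prob1 and Htra1, with Pearson correlations of 0.996, 0.993, 0.991, 0.989 and 0.988. They were the highest of 9687 protein-coding genes whose mean was 5 FPKM or more. The libraries share the genotype groups, so genes lower in triple-deficient retinas lead such an order, and the values are a description. Control libraries had 38.5 ± 5.61 FPKM of Arid3c and triple-deficient libraries 24.0 ± 0.506 FPKM (SD, n = 3). None of the 5 genes lies on chromosome 15.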

How the data were processed

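Values are FPKM per gene symbol, as deposited by the authors, in 1 table per library. TopHat2 2.1.1, Bowtie2 2.3.5.1, Cufflinks 2.2.1, Cuffdiff and the build mm10 are listed without roles in the submitters' processing notes. The sources used here do not give the annotation, the treatment of shared fragments or the scaling. The kit was stranded and selected mRNA, per the labels' protocols. Library groups come from the genotype labels, and the design text speaks of 3 littermate pairs, but no label ties a library to an animal, so p-values are taken to cover the spread between these samples.

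The members and gene lists were chosen with earlier results of these data known. Log2(FPKM + 1) values of genes whose mean reached 0.5 FPKM were fitted in R 4.3.3 by limma 3.58.1, allowing a trend of variance with mean. The tests were two-sided, with Benjamini-Hochberg adjustment over all genes and a threshold of 0.05. This scale understates changes of low genes. Paralog levels were compared with scipy 1.17.1. Length and GC content were those of the longest coding GENCODE M21 transcript, known for 99.2% of tested genes. Their trends were fitted per library with splines of 4 degrees of freedom. Named genes are the members, the targeted genes, up to 4 genes of each pathway list with the smallest p, TLC relatives of at least 10 FPKM, the gene nearest to a member and the 5 genes most like Cers5. Gene names matched RefSeq GRCm38.p6 directly for 23143 symbols and as synonyms for 1086. Beside them, Elovl1, Elovl4, Elovl6, Dbi, Sptlc2, Sptlc3, Fignl2, Mettl7a1, Slc4a8, Acvrl1, 4930415O20Rik, Gnat1 and Gnat2 were chosen after their values were seen. Some genes that the rule names are not reported here.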

Additional observations from a re-analysis of the deposited data

How the results depend on the processing

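Over all genes limma called 4 genes, and 2 with no filter on low values or with robust shrinkage, while leaving out 1 library in turn gave 3 to 11, with 7 without control 3, 10 without triple-deficient 1 and 11 without triple-deficient 3. No ceramide synthase and no gene of the pathway lists was called, either as reported or in any of the 17 alternatives. The changes of Cers5 and Cers1 were below 0 and that of Cers6 was above 0 in every alternative, and Cers2 and Cers4 were below 0 in 3 and 1 of them. Alternatives in the filter, the variance model or the replicate block alone cannot move these changes. For Cers5 and Cers1, whose groups do not overlap, leaving out a library cannot change the sign. The order of the 6 mean levels was the same in each of the 9 alternatives run for it, which were 2 pseudocounts, quantile normalization and leaving out each library. Most of this was fixed in advance. The pseudocounts do not enter the mean levels. A pair with the same member higher in every library keeps its order under quantile normalization and when a library is left out. Only the places of Cers1 and Cers6 could have changed. With 5 libraries an exact sign-flip test cannot go below p = 0.0625, so the number of pairs past the threshold was 0 when a library was left out, which says nothing about stability. The Cers1 change was -0.36 with Gdf1 added, an alternative chosen after seeing the data.

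The groups share the numbers 1 to 3, and the design speaks of littermate pairs without tying a number to a litter. Deviations of same-numbered libraries correlated across genes at 0.022, 0.114 and 0.067, and those of differently numbered libraries at -0.195 to 0.12. Deviations taken within groups of 3 are not independent, so these values do not decide whether the numbers mark pairs. For want of a label, the numbers were not taken as pairs. With the replicate block limma called 4 genes, 0 ceramide synthases and 0 pathway genes, and not every library correlated best with its own number. Depth limits Cers3, whose values rest on about 7 to 21 fragments.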
